A study of Mus musculus with 9 samples.

Results

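The Notch pathway was followed in whole-lung RNA through its 4 receptors (Notch1, Notch2, Notch3 and Notch4), 4 of its ligands (Jag1, Jag2, Dll1 and Dll4) and 2 of its target genes (Hes1 and Hey1). The members were all probes of the deposited table that carry 1 of these 10 symbols, which gave 10 probes of 39464. They covered 9 genes, of 25789 symbols on the array, since no probe was matched to Jag2 and Hes1 had 2 probes.

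Lungs of BALB/c mice aged about 12 weeks were hybridised to 9 Agilent arrays of 2 colours. By the labels, 4 arrays carried lungs of mice treated with phosphate-buffered saline (PBS) and 5 carried lungs of mice challenged with ovalbumin (OVA), an allergen used to provoke allergic airway inflammation. The labels' protocols state that the challenged mice had inflamed and hyperresponsive airways and raised serum IgE. Also by the labels, channel 2 (Cy5) of each array held 1 lung and channel 1 (Cy3) held a pool of the PBS-treated lungs. By these labels the pooled reference holds the same lungs as the PBS arrays, so the ratios of those arrays lie near 0 by construction. Nothing in the labels ties each lung to a separate animal, so the p-values cover only the spread among these 9 samples.

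Notch receptors are membrane proteins that are activated by ligands on neighbouring cells. Ligand binding leads to cleavage by ADAM proteases and γ-secretase, and the freed intracellular part enters the nucleus, where it joins the DNA-binding protein Rbpj and Mastermind coactivators to switch on genes of the Hes and Hey families. In the lung, Dll4, Notch1 and Notch4 are known from endothelium, Notch3 from pericytes and smooth muscle, and Notch signals between airway cells take part in the choice between secretory and ciliated fates.

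The single channels of these arrays went against their labels, and this bears on every direction given here. For Clca1, a secreted goblet cell protein, the mean intensity of channel 1 was 33.6 ± 1.2 over the PBS arrays (SD, n = 4) and 0.362 ± 0.0642 over the OVA arrays (SD, n = 5). Its channel 2 averaged 33.3 ± 3.84 over the former and 36.4 ± 2.03 over the latter (SD, n = 4 and 5). Channel 1, by the labels the same pool throughout, was thus the channel that differed between the 2 sets of arrays. With limma, a linear model fitted to each probe with a shared estimate of the spread, channel 1 alone gave 9739 probes that differed at an adjusted p under 0.05. Channel 2 alone, which by the labels holds the lungs compared, gave 0 (2677 at an unadjusted p under 0.05). Higher and lower below are those of the deposited ratio, channel 2 over channel 1, on the arrays labelled OVA against those labelled PBS. In this ratio all 7 goblet cell markers tested were higher, among them Clca1 at a log2 change of 6.69 ± 0.16 SE (limma adjusted p = 1.45e-07), Agr2 at 4.75 ± 0.13 SE (1.69e-07) and the mucin Muc5ac at 2.18 ± 0.06 SE (1.94e-07). All 7 markers of dividing cells were higher too, with a median of 2.14, where 15% of all probes were higher. Goblet cell genes are known to rise in ovalbumin-challenged lungs, so the sign of the ratio follows the OVA label while the single channels do not follow theirs. Which lungs each channel held was not tested. On the PBS arrays the SD of Hey1 was 0.308 in channel 1 and 1.25 in channel 2. On the OVA arrays it was 3.34 in channel 1 and 0.501 in channel 2. Every member probe had its larger SD in channel 1 on the OVA arrays. On the PBS arrays all but Jag1 (0.444 in channel 1, 0.338 in channel 2) had it in channel 2. Each member's change has the opposite sign once the OVA ratios are inverted.

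In that ratio 6 of the 9 measured Notch genes were lower on the OVA arrays and 0 were higher (limma, Benjamini-Hochberg adjusted p under 0.05 over 39413 probes). They were the receptors Notch1, Notch3 and Notch4, the ligand Dll4 and the targets Hes1 and Hey1. Over all probes, 18.9% were lower and 15% were higher by the same rule. The members' median log2 change was -0.32, beside -0.005 over all probes. For the same 6 genes all 5 OVA arrays lay below all 4 PBS arrays, which held for 16.3% of all probes. Quantile normalization of the ratios between arrays gives the PBS and OVA arrays the same distribution of ratios. With ratios so normalized only Dll4 passed the threshold (6.89% of all probes were then lower and 6.79% higher). With the OVA ratios inverted 7 members were higher and 0 lower, Jag1 being the seventh (log2 change 0.20, limma adjusted p = 0.027), and 18.5% of all probes were then higher and 14% lower. Because the PBS ratios lie near 0, inversion turns a clear fall into a rise by construction. The inverted count is therefore no separate test. In whole-lung RNA, fewer cells of a type and less RNA per cell cannot be told apart.

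**Figure D1:**
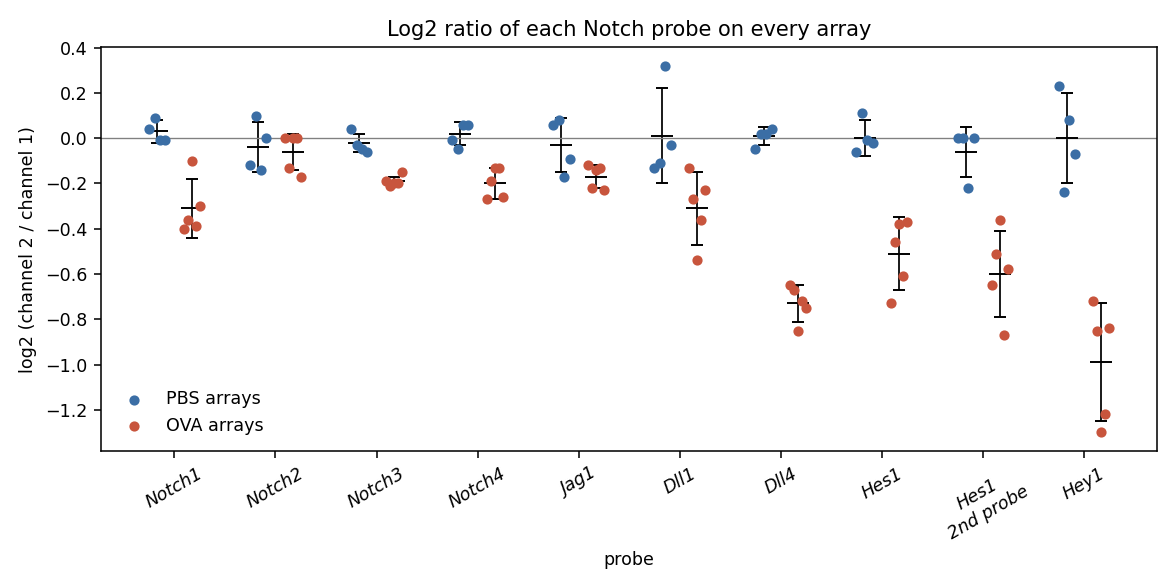
Log2 ratio of channel 2 over channel 1 (vertical axis) for the 10 probes of the Notch genes (horizontal axis). Points are single arrays, 4 PBS in blue and 5 OVA in red, and black bars give the mean and SD. The 2 groups do not overlap for Notch1, Notch3, Notch4, Dll4, Hey1 and both probes of Hes1, and they overlap for Notch2, Jag1 and Dll1.

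Among the receptors, Notch1, which has roles in sprouting vessels, airway cells and T cells, had the largest change. Its channel 1 read 2.73, 2.90, 2.88 and 2.74 on the PBS arrays and 3.82, 3.75, 3.26, 4.32 and 3.39 on the OVA arrays, in replicate order. Its channel 2 read 2.81, 3.08, 2.87 and 2.72 on the PBS arrays and 2.90, 2.92, 3.05, 3.29 and 2.76 on the OVA arrays. In channel 1 every OVA array was above every PBS array, whereas in channel 2 the groups overlapped. The log2 ratio was 0.03 ± 0.05 on the PBS arrays (SD, n = 4) and -0.31 ± 0.13 on the OVA arrays (SD, n = 5). The log2 change was -0.34 ± 0.06 SE, or 1.26-fold lower (limma adjusted p = 0.0038). OVA replicate 3 stood closest to the PBS arrays, with a log2 ratio of -0.10, and the other OVA arrays lay between -0.40 and -0.30.

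Notch4, a receptor largely restricted to endothelium, shifted less than Notch1 in channel 1 and more in channel 2. With channel 1 quantile normalized and fitted alone, the log2 change was 0.06 for Notch4 and 0.37 for Notch1. In channel 2 alone it was -0.18 for Notch4 and 0.04 for Notch1. Channel 1 of Notch4 read 7.95, 7.65, 7.95 and 7.6 on the PBS arrays and 8.25, 9.21, 8.20, 7.44 and 7.75 on the OVA arrays. Its channel 2 read 7.91, 7.39, 8.30 and 7.93 against 6.82, 8.08, 7.48, 6.78 and 6.45. Neither channel separated the groups, while the ratio within each array did. OVA replicate 2 was the brightest of the OVA arrays in both channels. The log2 ratio was 0.02 ± 0.05 on the PBS arrays and -0.20 ± 0.07 on the OVA arrays (SD, n = 4 and 5), a log2 change of -0.22 ± 0.04 SE (limma adjusted p = 0.0043).

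Notch3, the receptor of pericytes and vascular smooth muscle, gave the same picture at a smaller size. Channel 1 lay between 2.59 and 3.11 on the PBS arrays and between 2.76 and 3.18 on the OVA arrays, and channel 2 between 2.48 and 3.05 and between 2.49 and 2.79. The log2 ratios were 0.04, -0.03, -0.05 and -0.06 on the PBS arrays and -0.19, -0.21, -0.20, -0.20 and -0.15 on the OVA arrays. The 5 OVA ratios were nearly equal, with an SD of 0.02, and all lay below the PBS ratios. The log2 change was -0.17 ± 0.03 SE, or 1.12-fold lower (limma adjusted p = 0.0012).

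Notch2, the receptor with known roles in marginal zone B cells and bile ducts, did not pass the test. Its log2 ratio was -0.04 ± 0.11 on the PBS arrays and -0.06 ± 0.08 on the OVA arrays (SD, n = 4 and 5). The log2 change was -0.02, with a 95% interval from -0.16 to 0.12 (limma adjusted p = 0.85). Its intensities lay between 0.08 and 0.15 in both channels and are deposited with 2 decimals, so that the last decimal is a large part of the value. The sign of its change was not settled, since it was 0.05 with quantile normalized ratios, 0.03 without PBS replicate 2 and 0.01 without OVA replicate 5.

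Among the ligands, Dll4, which endothelial tip cells and arteries use to restrain sprouting, stood apart from the others. Its channel 1 read 3.33, 3.27, 3.50 and 3.20 on the PBS arrays and 5.38, 5.04, 5.97, 6.08 and 5.06 on the OVA arrays. Its channel 2 read 3.22, 3.32, 3.56 and 3.29 against 3.43, 3.16, 3.32, 3.69 and 3.01. The 5 channel 1 values of the OVA arrays were thus all above the other 13 values, which overlapped with each other. The log2 ratio was 0.01 ± 0.04 on the PBS arrays (SD, n = 4) and -0.73 ± 0.08 on the OVA arrays (SD, n = 5). This was a log2 change of -0.74 ± 0.04 SE, or 1.67-fold lower, with a 95% interval from -0.83 to -0.64 (limma adjusted p = 5.61e-06). Of all probes tested, 2.03% had a larger fall, and with the OVA ratios inverted 1.99% had a larger rise (log2 change of Dll4 then 0.72). With quantile normalized ratios the log2 change was -0.55 (limma adjusted p = 0.0012).

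Jag1, a ligand of vascular smooth muscle and airway epithelium, did not pass the test. Its channel 1 read 5.27, 5.43, 6.19 and 5.25 on the PBS arrays and 5.86, 6.69, 6.68, 8.67 and 6.67 on the OVA arrays. Its channel 2 read 5.50, 5.72, 5.50 and 4.93 against 5.38, 5.75, 6.07, 7.91 and 5.67. OVA replicate 4 was the highest array in both channels, so its ratio was close to those of the other OVA arrays. The log2 change was -0.14 ± 0.06 SE (limma adjusted p = 0.10), and only 2 of 5 OVA arrays lay below all PBS arrays. Without PBS replicate 3 it passed (log2 change -0.18, limma adjusted p = 0.026).

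Dll1, the delta ligand of marginal zone B cell niches, had a log2 ratio of 0.01 ± 0.21 on the PBS arrays and -0.31 ± 0.16 on the OVA arrays (SD, n = 4 and 5). PBS replicate 3 was high, with a log2 ratio of 0.32, and the other PBS arrays lay between -0.13 and -0.03. Of the OVA arrays, 4 of 5 lay below all PBS arrays. The log2 change was -0.32 ± 0.11 SE (limma adjusted p = 0.065). It passed without the dimmest 0.25 of probes (limma adjusted p = 0.038) and with a trended and robust prior (limma adjusted p = 0.029).

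The bases before the gene start of Dll4 and Notch1, the ligand and the receptor with the largest changes, are shown for the N box, the motif through which Hes proteins repress genes. Each is 250 bases long and runs 5′ to 3′ on the strand of the gene, with matches to the N box in capitals. They come from RefSeq, build GRCm38.p6, at chr2:119325534-119325783 on the plus strand for Dll4 and at chr2:26503823-26504072 on the minus strand for Notch1.
Dll4: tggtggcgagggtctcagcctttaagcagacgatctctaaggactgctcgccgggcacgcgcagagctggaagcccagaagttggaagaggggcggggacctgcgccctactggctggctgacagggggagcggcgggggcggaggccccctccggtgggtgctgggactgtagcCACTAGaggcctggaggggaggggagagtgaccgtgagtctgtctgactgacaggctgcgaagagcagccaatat
Notch1: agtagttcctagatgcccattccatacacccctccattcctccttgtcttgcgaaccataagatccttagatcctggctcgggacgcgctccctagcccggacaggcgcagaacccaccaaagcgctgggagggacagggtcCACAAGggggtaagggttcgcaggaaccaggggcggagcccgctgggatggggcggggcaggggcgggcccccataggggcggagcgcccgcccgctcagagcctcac

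Of the 10 members 8 were matched to such a window (all but Hes1 and Hey1), and 3 motifs were searched on both strands. The N box (CACNAG) was found for 4 members, beginning 75 bases before the gene start of Dll4 and 108 bases before that of Notch1, and was also found for Notch2 and Notch3. It occurred in 36.7% of all 32851 windows of this length. The core motif of Rbpj (GTGGGAA) was found for 0 members and in 5.42% of all windows. The palindromic E box CACGTG was likewise found for 0 members and in 6.02% of all windows. These counts describe letters in short windows and were not set against the changes in ratio.

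Both target genes were lower. Hey1, a transcriptional repressor induced by Notch in arterial endothelium and other tissues, had the largest change of all members. Its channel 1 read 7.19, 6.65, 7.35 and 6.92 on the PBS arrays and 9.91, 12.02, 17.11, 16.88 and 11.22 on the OVA arrays. Its channel 2 read 8.45, 5.64, 7.79 and 6.58 against 6.0, 6.69, 6.97, 7.23 and 6.27. Channel 1 of the OVA arrays was above all other values, and there OVA replicates 3 and 4 stood above the other 3. The log2 ratio was 0.00 ± 0.20 on the PBS arrays (SD, n = 4) and -0.99 ± 0.26 on the OVA arrays (SD, n = 5). The log2 change was -0.99 ± 0.15 SE, or 1.98-fold lower (limma adjusted p = 0.0011). Of all probes 0.556% had a larger fall, and with the OVA ratios inverted 0.573% had a larger rise (log2 change of Hey1 then 0.98). With quantile normalized ratios the log2 change was -0.87 and the call was lost (limma adjusted p = 0.062).

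Hes1, a repressor and Notch target in many tissues, was measured by 2 probes that moved alike. The brighter probe read 1.38, 1.48, 1.47 and 1.41 in channel 1 of the PBS arrays and 2.39, 1.92, 2.01, 2.41 and 1.60 in channel 1 of the OVA arrays. Its channel 2 read 1.32, 1.60, 1.46 and 1.39 against 1.44, 1.40, 1.54, 1.58 and 1.24. In channel 1 all OVA arrays were above all PBS arrays, and in channel 2 the groups overlapped. The log2 ratio was 0.00 ± 0.08 on the PBS arrays and -0.51 ± 0.16 on the OVA arrays (SD, n = 4 and 5), a log2 change of -0.51 ± 0.08 SE or 1.43-fold lower (limma adjusted p = 0.0015). The second probe had a log2 change of -0.54 ± 0.10 SE (limma adjusted p = 0.0035), although its intensities lay only between 0.06 and 0.11 with 2 decimals.

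**Figure D2:**
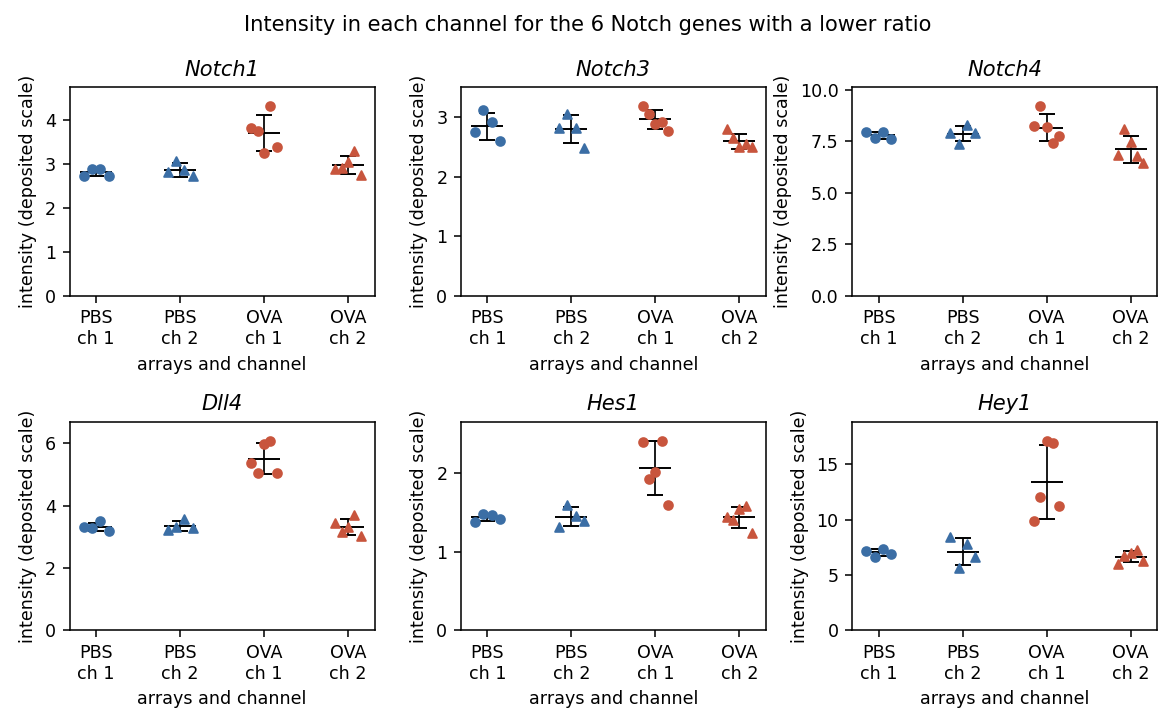
Intensity on the deposited scale (vertical axis, from 0) of the 6 Notch genes with a lower ratio, by arrays and channel (horizontal axis). Points are single arrays (circles channel 1, triangles channel 2, blue PBS, red OVA) and black bars give the mean and SD (n = 4 PBS, 5 OVA). For Dll4, Hes1, Hey1 and Notch1, channel 1 of the OVA arrays lies above channel 1 of the PBS arrays, with means of 5.51, 2.07, 13.4 and 3.71 against 3.33, 1.44, 7.03 and 2.81, while for Notch3 and Notch4 the channels overlap.

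The single channels were then fitted on their own, after quantile normalization of all channels together. In channel 1 alone, Dll4, Hes1, Hey1 and Notch1 were higher on the OVA arrays, 4 of 9 members, and 0 were lower, where 14.3% of all probes were higher and 10.4% lower. The log2 change in channel 1 was 0.91 ± 0.17 SE for Hey1 (limma adjusted p = 0.0034), 0.72 ± 0.08 for Dll4 (7.44e-05), 0.49 ± 0.11 for Hes1 (0.0093) and 0.37 ± 0.09 for Notch1 (0.012). Notch3 and Notch4 did not pass there, with log2 changes of 0.04 ± 0.08 SE and 0.06 ± 0.08 SE (limma adjusted p = 0.79 and 0.61). Jag1 was at 0.31 ± 0.10 SE (limma adjusted p = 0.051). In channel 2 alone 0 members and 0% of all probes passed (limma), and 2 members, Notch2 and Notch4, had an unadjusted p under 0.05, with log2 changes of -0.22 and -0.18. The authors' deposited table also holds a p-value for each probe and array. In the authors' deposited table it was under 0.05 on 5 of 5 OVA arrays for Hey1 and the second Hes1 probe, and on 4 for Dll4 and the brighter Hes1 probe. For Dll4 the remaining array, OVA replicate 3, stood at 0.05 in the authors' deposited table. It was under 0.05 on 3 OVA arrays for Notch1, on 2 for Dll1 and on 0 for Notch2, Notch3, Notch4 and Jag1 in the authors' deposited table. It was under 0.05 on 0 PBS arrays for any member in the authors' deposited table. The share of all probes with such p-values was not counted, so these counts have no background beside them.

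**Figure D3:**
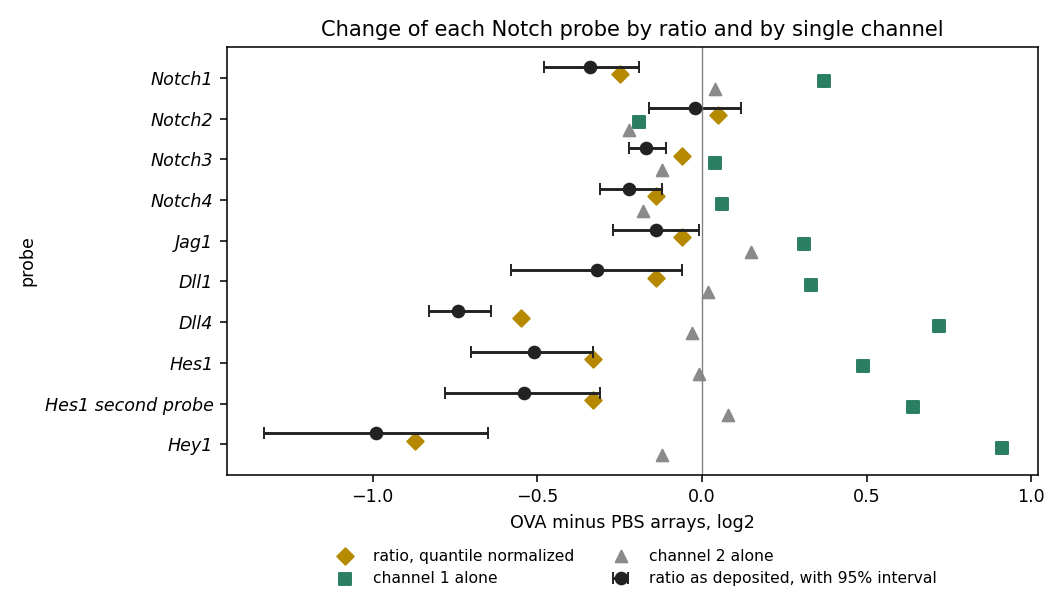
Log2 difference between OVA and PBS arrays (horizontal axis) for each Notch probe (vertical axis) in the deposited ratio with its 95% interval (black circles), in the quantile normalized ratio (yellow diamonds), in channel 1 alone (green squares) and in channel 2 alone (grey triangles). For Hey1 and Dll4 the ratio is at -0.99 and -0.74 and channel 1 at 0.91 and 0.72, while channel 2 is at -0.12 and -0.03.

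Members of the same role were set against each other within each array, as the difference of their log2 ratios, in 10 pairs. The smallest two-sided p of an exact permutation test with 5 and 4 arrays is 0.016. It was reached by 3 pairs, and none passed after Benjamini-Hochberg adjustment over the 10 pairs (exact permutation test, adjusted p = 0.053). A pair at this smallest p could pass only if more than 3 pairs reached it. That these pairs did not pass is therefore no sign that their members changed alike. The log2 change of Jag1 minus that of Dll4 was 0.60, that of Dll1 minus Dll4 was 0.42, and that of Notch1 minus Notch2 was -0.32. For Hes1 minus Hey1 it was 0.47 (exact permutation p = 0.063, adjusted p = 0.13). Probes can respond to the same change by different amounts, so these sizes compare probes and not transcripts.

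Of the rest of the pathway, 44 genes in 5 lists were measured, and 9 were higher in the ratio, 14 were lower and 21 did not pass the threshold (limma, all probes adjusted together). Their median log2 change was -0.02, beside -0.005 over all probes. By the same rule 15% of all probes were higher and 18.9% lower, and the counts of each list below are to be read beside these shares. The lists were chosen by function with earlier results of these arrays known. With quantile normalized ratios 5 of the 44 were higher and 8 lower, where 6.79% of all probes were higher and 6.89% lower. The calls of Ncstn, Aph1a, Adam10, Mfng, Mib2, Dtx2, Hes6 and Maml1 given below were among those lost there (limma adjusted p from 0.087 to 0.51).

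Among the other Hes and Hey genes, Heyl and Hey2, close relatives of Hey1, were both lower. Heyl, known from smooth muscle and pericytes, had a log2 change of -0.82 ± 0.05 SE (limma adjusted p = 9.73e-06), and Hey2, known from arteries and heart, of -0.74 ± 0.05 SE (limma adjusted p = 9.00e-06). Both calls held with quantile normalized ratios (limma adjusted p = 0.0079 and 6.38e-04). In channel 1 Heyl was at 0.51 on average on the PBS arrays and at 0.934 on the OVA arrays, and Hey2 at 0.133 and 0.224. The Hey2 probe was thus dim, and its intensities are deposited with 2 decimals, which limits its values. Hes6, known as an inhibitor of Hes1, was higher, with a log2 change of 0.26 ± 0.04 SE (limma adjusted p = 9.80e-04). Of the 7 genes in this list 1 was higher and 2 lower, and Hes2, Hes3, Hes5 and Hes7 did not pass.

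In the nuclear complex 2 of 11 genes were higher and 5 lower, with a median log2 change of -0.19. Rbpj, the DNA-binding partner of cleaved Notch, was 1.72-fold higher (log2 change 0.78 ± 0.08 SE, limma adjusted p = 9.72e-05), and its channel 1 averaged 0.702 on the PBS arrays and 0.406 on the OVA arrays. The acetyltransferases Kat2b and Ep300, coactivators of the complex, were lower, with log2 changes of -0.71 ± 0.12 SE (limma adjusted p = 0.0020) and -0.46 ± 0.05 SE (1.37e-04). A second probe of Ep300 was at -0.39 and a second probe of Kat2b at -0.14 (limma adjusted p = 0.17). The first Kat2b probe was dim, with mean intensities between 0.075 and 0.122 over channels and groups, deposited with 2 decimals. Of the 3 Mastermind coactivators, Maml3 was higher at 0.39 and Maml1 and Maml2 were lower at -0.20 and -0.28. The Maml2 probe was dim as well, with channel 1 means of 0.122 on the PBS arrays and 0.134 on the OVA arrays.

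Of 8 genes for the cleavage of Notch 4 were higher and 1 lower, with a median log2 change of 0.21. The higher ones were Adam10, the protease of the first ligand-induced cut, and the γ-secretase subunits Aph1a, Psen2 and Ncstn. Aph1a was at 0.49 ± 0.14 SE (limma adjusted p = 0.028), Psen2 at 0.41 ± 0.05 (4.66e-04) and Adam10 at 0.26 ± 0.05 (0.0047). Psenen, a further subunit, was lower at -0.14. With quantile normalized ratios Psen2 was the 1 gene that remained higher and Psenen the 1 that remained lower. Without OVA replicates 2 and 4, 3 were higher and 0 lower.

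Of 5 enzymes that attach or extend sugars on Notch, 1 was higher and 3 lower, with a median log2 change of -0.12. Pofut1, which adds the first fucose, was higher at 0.33 ± 0.04 SE (limma adjusted p = 2.66e-04). The fringe enzyme Mfng was lower at -0.30 ± 0.05 SE (limma adjusted p = 0.0012), as was the glucosyltransferase Poglut1 (listed as Ktelc1) at -0.18 ± 0.03 SE (0.0017). Among 13 genes of ligand endocytosis, receptor turnover and related ligands, 1 was higher and 3 lower, with a median of 0.01. Numb, an inhibitor that directs Notch to degradation, was 1.51-fold lower (log2 change -0.60 ± 0.05 SE, limma adjusted p = 3.84e-05), with a second probe at -0.56. The ubiquitin ligase Mib2 was lower at -0.45 ± 0.08 SE (limma adjusted p = 0.0030), and Dtx2, a deltex ubiquitin ligase, was higher at 0.18 ± 0.05 SE (0.017).

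**Figure D4:**
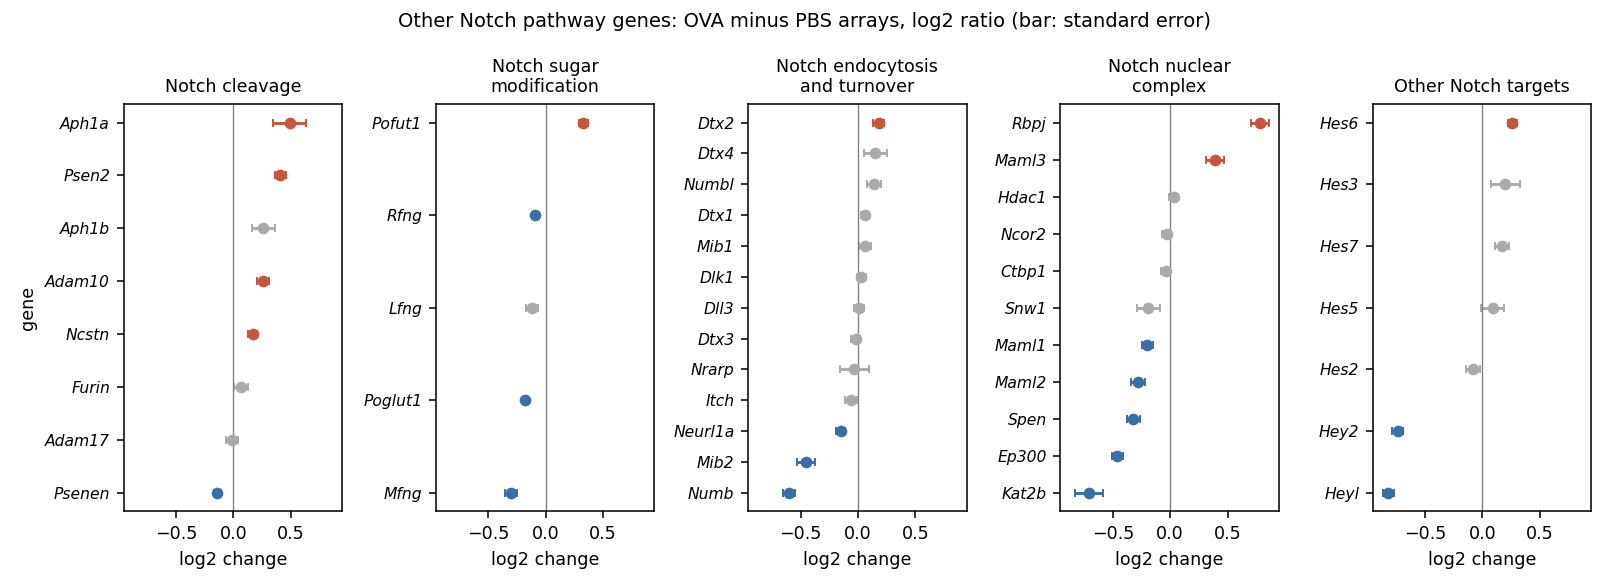
Log2 change of the ratio between OVA and PBS arrays (horizontal axes, bars give the standard error) for 44 other genes of the Notch pathway (vertical axes), in 5 lists. Red genes were higher and blue genes lower at an adjusted p under 0.05 with limma, and grey genes did not pass. Rbpj at 0.78 lies farthest to the right and Heyl at -0.82 farthest to the left.

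Marker lists of lung cell types, among them those known to carry these genes, differed in how many of their genes passed the test. Over all probes 15% were higher and 18.9% lower by the same rule, and with quantile normalized ratios 6.79% and 6.89%. Of 12 endothelial markers 0 were higher and 11 lower (7 with quantile normalized ratios), with a median log2 change of -0.47. The summed intensity of the endothelial markers in channel 1 lay between 79.0 and 86.0 on the PBS arrays and between 116 and 122 on the OVA arrays. In channel 2 their sum lay between 75.7 and 88.2 and between 79.8 and 83.9, so that the channel that set the 2 sets of arrays apart was again channel 1. None of these markers had a mean intensity of 0. Cldn5, the 1 endothelial marker that was not lower, had a log2 change of 0.0 ± 0.07 SE. Of 9 markers of pericytes and smooth muscle, among them Notch3 itself, 2 were higher, 2 lower and 5 did not pass, and their channel 1 sum lay between 37.3 and 39.4 on the PBS arrays and between 33.2 and 37.8 on the OVA arrays. Of 11 leukocyte markers 6 were higher, 1 was lower and 4 did not pass, with a channel 1 sum between 43.9 and 45.3 on the PBS arrays and between 17.9 and 22 on the OVA arrays. Of 6 markers of alveolar type 1 cells 5 were lower and 1 was higher, with a median log2 change of -0.57, and their channel 1 sum lay between 78.8 and 86.4 on the PBS arrays and between 113 and 122 on the OVA arrays. Rtkn2 was at -0.77 ± 0.04 SE (limma adjusted p = 5.04e-06), while Pdpn was the 1 higher marker at 0.33 ± 0.03 SE (1.01e-04). Of 5 club cell markers, genes of the secretory cells of the airway, 3 were lower and 0 higher, with a median of -0.48, and Cyp2f2 had the largest change at -0.98 ± 0.06 SE (limma adjusted p = 1.25e-05). Their channel 1 sum lay between 59.9 and 65.7 on the PBS arrays and between 91.7 and 104 on the OVA arrays. With quantile normalized ratios 3 alveolar type 1 markers and 1 club cell marker were still lower. Of 7 markers of ciliated cells 1 was higher and 1 lower, with a median of -0.02. Of the markers of alveolar type 2 cells 2 could be tested and 1, Abca3, was lower at -0.36. The goblet cell and dividing cell markers, higher throughout in the ratio, had channel 1 sums between 48.1 and 51 and between 9.7 and 10.7 on the PBS arrays, and between 1.72 and 2.02 and between 1.91 and 2.34 on the OVA arrays. The part of these cell types in the changes of the Notch genes was not tested.

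Genes of other tissues varied between the arrays. The median log2 ratio of 6 skeletal muscle genes was -2.52 on OVA replicate 2 and between -0.38 and -0.25 on the other OVA arrays. That of 5 adipose tissue genes was -1.68 on OVA replicate 4, between -0.55 and -0.18 on the other OVA arrays, and between -1.0 and 0.87 on the PBS arrays. That of 7 heart muscle genes lay between -0.87 and -0.37 on the OVA arrays and between -0.77 and 0.61 on the PBS arrays. Without OVA replicates 2 and 4 the same 6 Notch genes were lower (limma adjusted p between 2.60e-04 for Dll4 and 0.032 for Notch1).

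The genes whose log2 ratio followed Dll4 most closely over the 9 arrays were sought among 13316 named, brighter probes. They were Krtap17-1 (Pearson r = 0.995), Nudt14 (0.994) and Dapk2 (0.994), with log2 changes of -1.87, -0.40 and -0.69. Because the arrays form 2 sets, likeness of this kind is common, and 2589 of these probes had r over 0.9.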

How the data were processed

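Total RNA of lungs was amplified and hybridised with the pooled PBS lungs in Cy3 and the sample in Cy5, per the labels' protocols. The submitters' processing notes name Agilent Feature Extraction 8.5.1.1, and other steps of the authors were not given in the sources used. The table gives an intensity for each channel and a p-value for each probe and array, per the file headers. These intensities, from 0.00055 to 70.15, were already scaled by the authors in a way that is not stated. A second deposited table holds log10 ratios, which equalled the log10 of channel 2 over channel 1 (99% of differences under 0.00044), with column medians of 0. There were 0 columns of other samples. On each array between 39376 and 39451 probes had a value, and the median intensity of a channel lay between 0.12 and 0.17. The number of arrays limits the precision. Abca3 and Aqp5, markers of alveolar type 2 and type 1 cells, were measured at mean intensities of at least 31.2 and 5.82 in each channel and group. Log2 ratios correlated across probes at r between 0.705 and 0.823 between OVA arrays and between -0.266 and 0.105 between PBS arrays.

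Symbols were updated with RefSeq names (assembly GRCm38.p6). Log2 ratios were compared with lmFit and eBayes of limma 3.58.1 (R 4.3.3, two-sided, without covariates) for 39413 probes with at least 2 values in each group, with Benjamini-Hochberg adjustment and a threshold of 0.05. A gene was represented by its brightest probe. The fit was tested on simulated ratios of 38351 probes with independent noise, of which 200 were changed. There 64.2% of log2 changes of 0.5, 89.6% of those of 1 and 95.5% of those of 2 were recovered and 5.14% of calls were false. On the real arrays 13352 of 39413 probes were called, a far larger share, so these rates cannot be taken as those of these data. The members and lists were chosen with earlier results of these data known. Named were all members, up to 3 genes of each pathway list with the largest changes, and the 3 genes most like the member with the smallest p. One gene of the cleavage list is not reported here. Other genes were named to complete a count or a marker list after their values were seen. Alternatives were other scalings, filters, priors, blocks and channels, and each array left out.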

Additional observations from a re-analysis of the deposited data

Results flagged for a closer look

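One value stood far from the others of its group. On PBS replicate 3 the second probe of Hes1 had a log2 ratio of -0.22, while the other 3 PBS arrays were at 0. Its deposited intensities there were 0.07 in channel 1 and 0.06 in channel 2, the last decimal of the file. In all, 20 groups of arrays were checked, and chance flags about 1 in 20.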

How the results depend on the processing

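The count of 6 lower members, and of 0 higher ones, was unchanged with the log10 ratio table, median centring, loess within arrays, 0.05 added to both channels, 1 probe per gene and probes with a value on all arrays. It was 7 lower without the dimmest 0.25 of probes, with a trended and robust prior and without PBS replicate 3, and between 6 and 7 with each array left out. Quantile normalized ratios gave 1 lower member and 5389 probes called in all, against 13352. Requiring at least a 1.5-fold change gave 2 lower members and 2938 probes. Channel 2 alone gave 0 lower members and 0 probes, and channel 1 alone 0 lower and 4 higher. Inverted OVA ratios, which turn clear falls into rises by construction, gave 0 lower and 7 higher. With each array left out between 11335 and 12691 probes were called. With quantile normalized ratios the calls of Notch1, Notch3, Notch4, both Hes1 probes and Hey1 were lost (limma adjusted p from 0.062 to 0.60). This setting gives both sets of arrays the same distribution of ratios, although the PBS ratios otherwise lie near 0. Under it the log2 change of Clca1 was 4.47, against 6.69 in the deposited ratio. Its part in the lost calls was not tested. Notch2, which passed in no setting, was at 0.05 with quantile normalized ratios, at 0.01 with the replicate block, and from -0.05 to 0.03 with each array left out, above 0 without OVA replicate 5 or PBS replicate 2. With the replicate number as a block 6 members were lower and 9143 probes were called, and the second Hes1 probe no longer passed (limma adjusted p = 0.064). Same-numbered arrays deviated from their group means with correlations between -0.126 and -0.016, so the numbers do not pair the arrays. Intensities with 2 decimals limit Notch2, the second Hes1 probe and other dim probes such as those of Kat2b, Hey2 and Maml2.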

Other observations

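Values of 4 vascular genes from the marker lists are added here, picked after they were seen. Efnb2 and Sox17, both known from arterial endothelium, were lower in the ratio, with log2 changes of -0.98 ± 0.11 SE (limma adjusted p = 2.55e-04) and -0.69 ± 0.10 SE (7.58e-04). Efnb2 averaged 9.67 in channel 1 of the PBS arrays and 18.1 in channel 1 of the OVA arrays. Pdgfrb, the growth factor receptor of pericytes, was lower at -0.55 ± 0.06 SE (limma adjusted p = 1.97e-04), while Acta2, smooth muscle actin, was higher at 0.66 ± 0.06 SE (8.60e-05). Beside these 4 genes, Cspg4 and Rgs5 of the same list as Pdgfrb did not pass, at -0.14 and 0.06 (limma adjusted p = 0.095 and 0.24).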
